A study of Mus musculus with 12 samples.

Results

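DEAD box and DEAH box proteins are RNA helicases, and their mouse genes carry symbols that start with Ddx or Dhx and a number. With earlier results of these data known, the genes were chosen by that start of the symbol alone, a rule that uses no measured value. They comprised 40 genes with 70 listed m6A peaks, of 10277 genes and 17503 peaks in all: 28 Ddx genes with 52 peaks and 12 Dhx genes with 18 peaks. The study measured m6A, a methylated adenosine of mRNA, by immunoprecipitation and sequencing of fragmented poly(A) RNA from the livers of C57BL/6 mice. The labels give 4 groups of 3 libraries each, namely immunoprecipitated and input RNA from Mettl3-deficient liver and immunoprecipitated and input RNA from wild-type liver. The title of the series calls the liver postnatal, and the labels used here give neither an age nor the allele, promoter or Cre line behind the deficiency. All 5 hepatocyte markers examined (Alb, Apoa1, Ttr, Hnf4a and Cyp2e1) held listed peaks, as did 7 of 16 markers of other liver cell types, so the RNA came from a mixed tissue.

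DEAD and DEAH box helicases use ATP to open short RNA duplexes, to move along RNA or to strip proteins from it, and they take their names from the one-letter codes of a conserved amino acid motif. They serve nearly every step of an RNA's life, from ribosome assembly and splicing to export, translation and decay. METTL3 is the catalytic subunit of the enzyme that places most m6A on mRNA, commonly near stop codons and in long exons, and a cap-adjacent methylated adenosine placed by another enzyme is also bound by antibodies to m6A.

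Every peak comes with the authors' log2 fold change between the genotypes and with a false discovery rate (FDR) given as its log10, and a peak is here named called at an FDR of 0.05 or below. Which genotype is the numerator is not stated in the sources used here. Going by the design alone, a value below 0 likely means that the Mettl3-deficient liver had less m6A enrichment than the wild type. No values per library were used, so the spread between mice and the read depth behind a peak are unknown, and no value below has an error of its own. Whether the fold change allows for the level of the RNA in the input is not stated either, so less methylation and less RNA, fewer cells of a type and less RNA per cell, cannot be told apart.

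Most helicase peaks passed the FDR threshold, and more of them were negative than positive. Of the 70 peaks, 61 (87.1%) were called, against 76.2% of all listed peaks. A negative call was made for 36 (51.4%), against 40.6% of all peaks, and a positive call for 25 (35.7%), against 35.6%. Among called peaks 59.0% were negative (95% Wilson interval 46.5 to 70.5, which covers counting error over peaks only), an interval that holds the 53.3% of all genes. Negative helicase changes ran between -2.61 and -0.33 with a median of -1.06 on the log2 scale, a ratio of 0.478, and the positive ones between 0.29 and 1.15 with a median of 0.68, a ratio of 1.6. Over all genes these medians were -1.34 and 0.73. A log2 fold change of -1 or below was called in 19 helicase peaks (27.1%), against 29.0% of all peaks, and one of 1 or above in 7 (10%), against 7.80% of all peaks. Both shares lie near those of all peaks. The lowest log10 FDR of any helicase peak was -129, in Ddx47.

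By gene, the leading peak, which is the one with the smallest FDR, was called in 38 of 40 helicase genes (95%), against 81.1% of all genes. It was negative and called in 27 of 40 helicase genes (67.5%), against 47.6% of all genes. It was positive and called in 11 (27.5%), against 33.6% of all genes, and 2 genes, Dhx29 and Dhx58, had no called peak. Among genes with a called leading peak, 71.1% of the helicase genes were negative (Wilson interval 55.2 to 83.0). The share over all genes was 58.6%, which that interval holds. The median over leading peaks was -0.83 in the helicase genes and -0.52 in all genes. No test of these differences was made, since the genes were chosen with results of these data known.

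**Figure D1:**
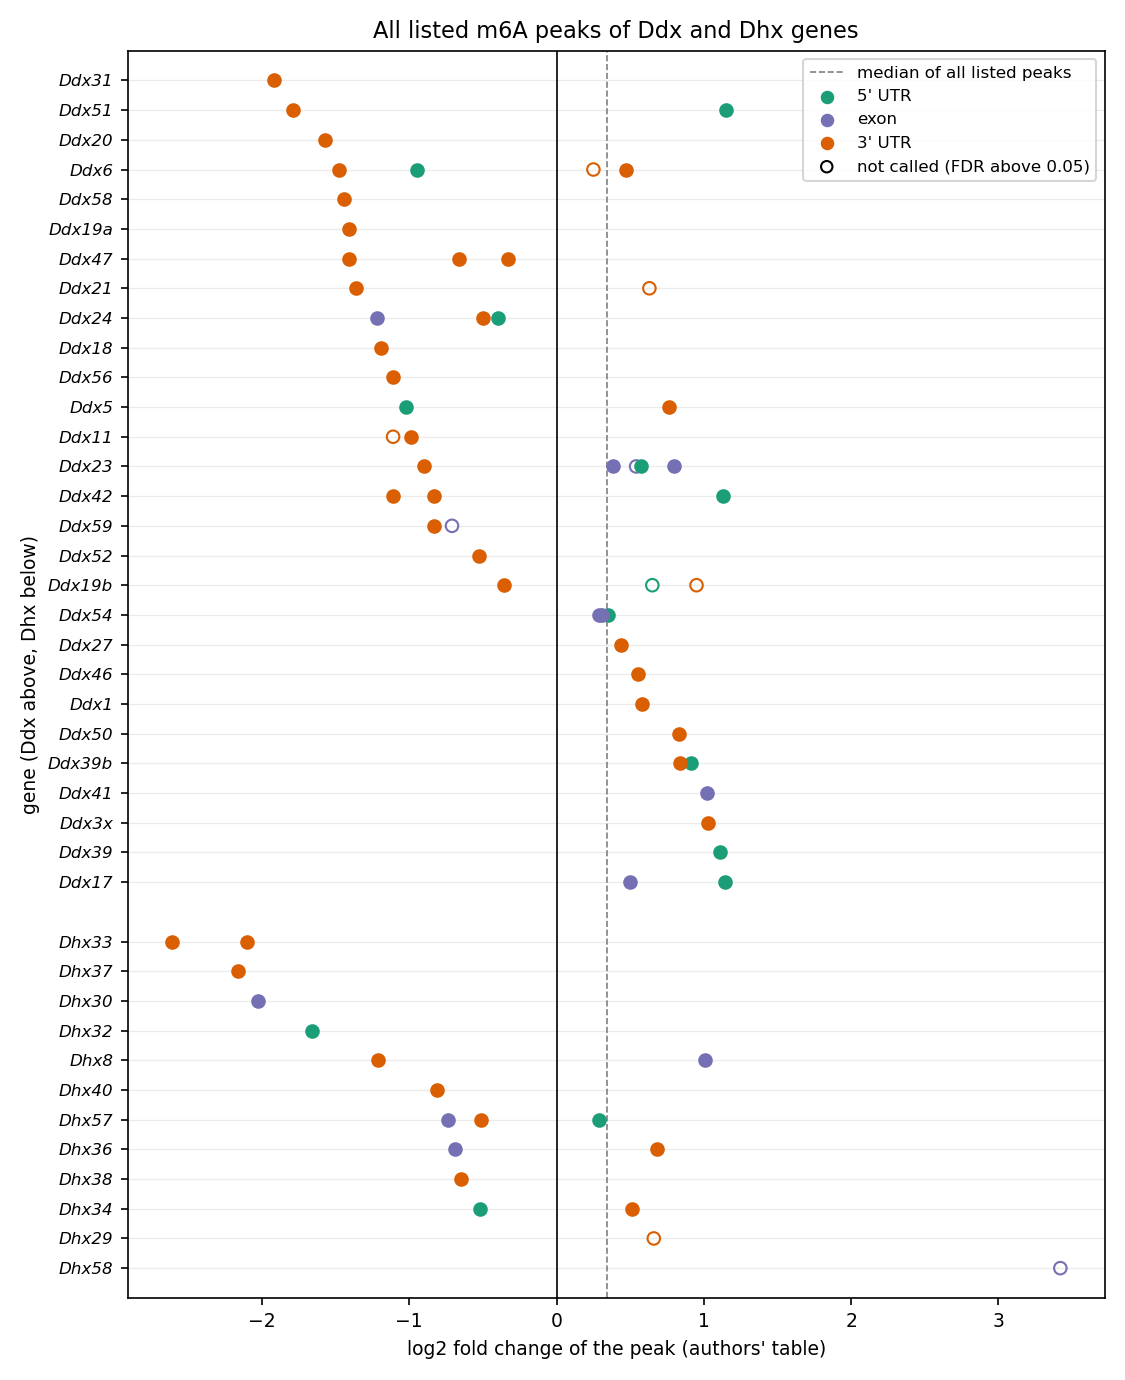
Log2 fold changes of all 70 listed peaks (x axis, the authors' values), 1 row per gene, Ddx genes above and Dhx genes below, coloured by annotated feature, open where the FDR was above 0.05. The 40 genes are ordered by their leading peak within each class, and the dashed line marks the median of all listed peaks, 0.34.

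The Dhx genes held few positive called peaks. Of 52 Ddx peaks, 24 were negative and called, 21 positive and called and 7 not called; of 18 Dhx peaks, the counts were 12, 4 and 2. The negative calls made up 46.2% of Ddx and 66.7% of Dhx peaks, against 40.6% of all listed peaks, and the positive ones 40.4% and 22.2%, against 35.6%. Among called peaks the negative share was thus 53.3% in Ddx genes (Wilson interval 39.1 to 67.1) and 75.0% in Dhx genes (50.5 to 89.8), and the intervals overlap. The Ddx share equals that of all listed peaks, 53.3%, and the Dhx interval holds it as well. By leading peak, 18 of 28 Ddx genes were negative and 10 positive, while 9 of 12 Dhx genes were negative, 1 was positive (Dhx34) and 2 were not called. The negative genes were 64.3% of Ddx and 75.0% of Dhx genes, against 47.6% of all genes, and the positive ones 35.7% and 8.33%, against 33.6%. All 10 genes with positive called peaks and no negative ones were Ddx genes, where they made up 35.7%, against 31.9% of all genes.

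The medians of the classes were close in the 3′ UTR and apart elsewhere. Over all listed peaks the median log2 fold change was -0.04 in Ddx and -0.67 in Dhx genes. The Ddx median lies in the gap between negative and positive peaks, and without Ddx11 and Ddx58, whose proteins belong to other helicase families, it stood at 0.29. Within the 3′ UTR the medians were -0.745 over 32 Ddx peaks and -0.73 over 10 Dhx peaks. In exons they were 0.38 over 9 Ddx and -0.69 over 5 Dhx peaks, and in the 5′ UTR 0.65 over 11 Ddx and -0.52 over 3 Dhx peaks. By leading peak they were -0.865 and -0.775. Classes were taken from the symbol, and the difference between them was not tested.

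**Figure D2:**
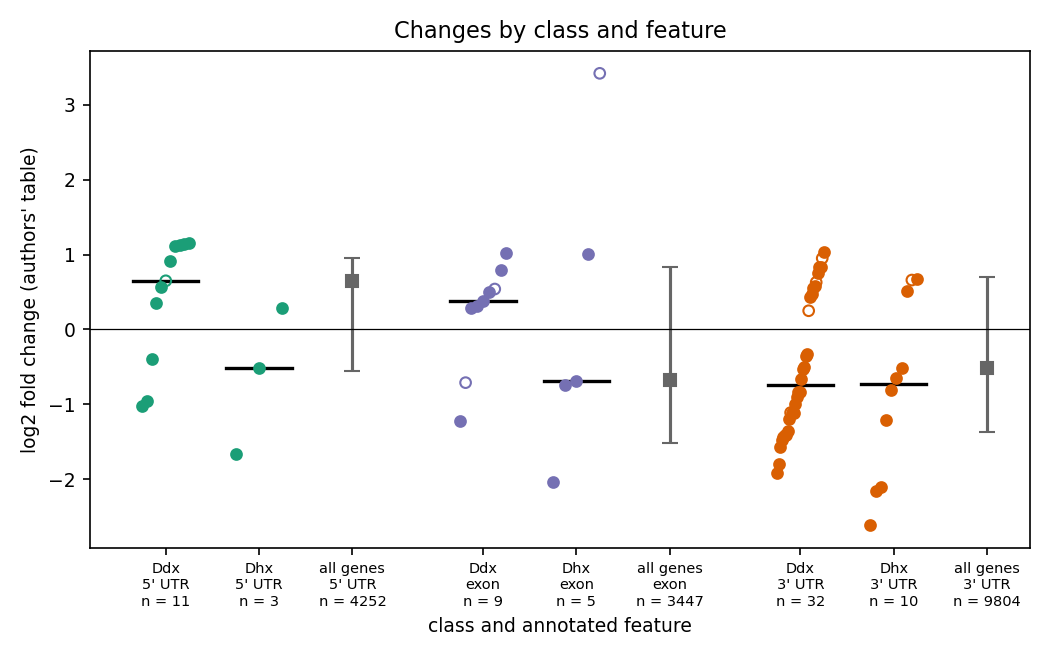
Log2 fold change (y axis) of each helicase peak by class and annotated feature, open where not called, with the class median as a bar; the grey square and whiskers give the median and quartiles of all listed peaks of that feature. In the 3′ UTR the Ddx and Dhx medians, -0.745 and -0.73, lie side by side, while in exons the Ddx median is 0.38 and the Dhx median -0.69.

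Negative calls prevailed among helicase peaks in the 3′ UTR, and positive ones in the 5′ UTR and in exons. Called peaks numbered 37 of 42 in the 3′ UTR, against 81.0% of all 3′ UTR peaks, 13 of 14 in the 5′ UTR, against 76.4%, and 11 of 14 in exons, against 62.5%. Of 42 peaks in the 3′ UTR, 27 were negative and called, against 48.9% of all 3′ UTR peaks, and 10 positive, against 32.1%. Among called 3′ UTR peaks 73.0% were negative in helicase genes (Wilson interval 57.0 to 84.6) and 60.4% in all genes. Of 14 peaks in the 5′ UTR, 5 were negative and called, against 23.0% of all 5′ UTR peaks, and 8 positive, against 53.4%. Among called 5′ UTR peaks the negative share was 38.5% in helicase genes (17.7 to 64.5) and 30.1% in all genes.

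Exon peaks of helicase genes were few, and most of the called ones were positive. Of 14 helicase exon peaks, 4 were negative and called, against 38.6% of all exon peaks, and 7 positive, against 23.9%. The negative share among called ones was 36.4% in helicase genes (15.2 to 64.6) and 61.8% in all genes. The 6 positive Ddx exon peaks came from 4 genes (Ddx17, Ddx23, Ddx41 and Ddx54), so they are not 6 separate transcripts, and the only negative one was that of Ddx24. In Dhx genes 3 exon peaks were negative (Dhx30, Dhx36 and Dhx57) and 1 positive (Dhx8).

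**Figure D3:**
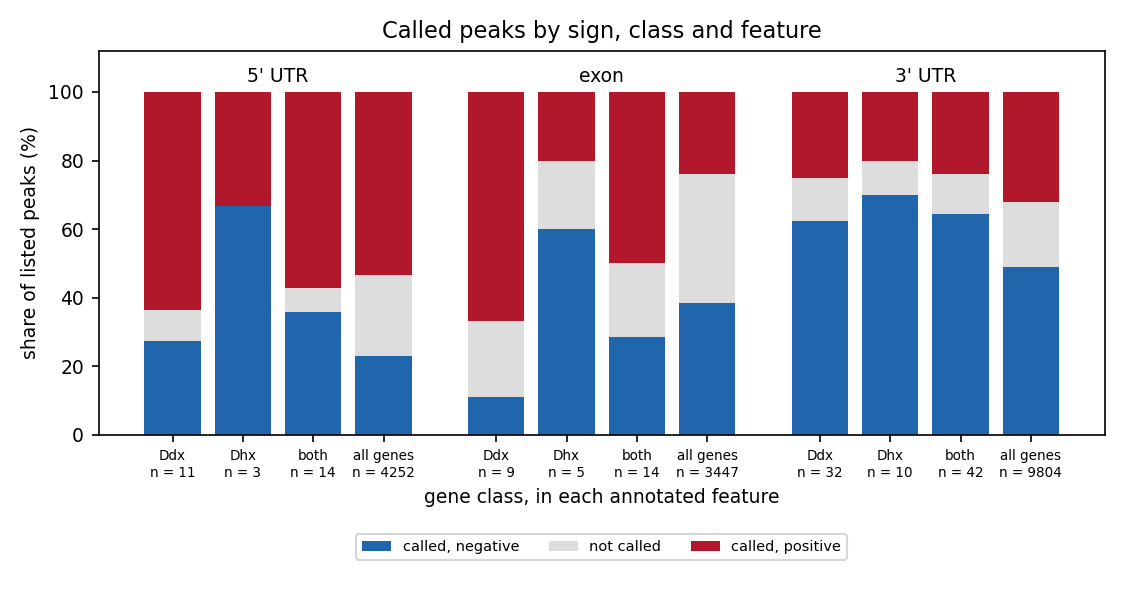
Share of listed peaks (y axis, percent) that were called and negative, not called, or called and positive, in each feature, for Ddx genes, Dhx genes, both together and all genes; n is the number of listed peaks. The negative part is 64.3% of 42 helicase peaks in the 3′ UTR and 28.6% of 14 in exons.

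Ribosome assembly was the largest role among the listed helicases, with 13 genes whose products remodel precursor ribosomal RNA in the nucleolus. Their leading peak was negative and called in 10 genes and positive and called in 3, and over their 22 peaks 15 were negative, 6 positive and 1 not called. The negative share was 76.9% of these genes, against 47.6% of all genes, and 68.2% of their peaks, against 40.6% of all peaks. The positive share was 23.1% of these genes, against 33.6%, and 27.3% of their peaks, against 35.6%. The leading peak was called in all 13 genes, against 81.1% of all genes. Among genes with a called leading peak the negative share was 76.9% (Wilson interval 49.7 to 91.8). That interval holds the 58.6% of all genes. Among called peaks the negative share was 71.4%, and its Wilson interval holds the 53.3% of all peaks as well. The median over leading peaks was -1.22, against -0.52 over all genes. The most negative was Dhx33, whose product acts in ribosomal RNA synthesis and translation. Its peak at chr11:70986546-70987354 (mm10, 809 bp, 3′ UTR) stood at -2.61, a ratio of 0.164, with a log10 FDR of -102 in the authors' deposited table. For the other 3′ UTR peak of Dhx33, which ends at the RefSeq end of the gene, the authors' deposited table gives -2.10 (log10 FDR -47.4). Both Dhx33 peaks were thus among the 4 helicase peaks at -2 or below, together with those of Dhx37 and Dhx30.

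Dhx37 encodes a helicase of small ribosomal subunit assembly. Its only listed peak, at chr5:125414546-125415024 in the 3′ UTR, stood at -2.16 (ratio 0.224, log10 FDR -106) in the authors' deposited table. For Ddx31 and Ddx51, both nucleolar helicases, the authors' deposited table gives -1.92 (chr2:28904763-28905212) and -1.79 (chr5:110657678-110658097), each labelled 3′ UTR. The RefSeq gene goes on for 4922 bp past that Ddx51 peak, so the label follows a shorter transcript. Ddx47, another factor of the small subunit, had the lowest FDR of all helicase peaks, with -1.41 at chr6:135023237-135023776 (log10 FDR -129), and further 3′ UTR peaks of -0.66 and -0.33 in the authors' deposited table. All 3 Ddx47 peaks were called.

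Further nucleolar genes with negative leading peaks were Ddx21 at -1.36, Ddx24 at -1.22, Ddx18 at -1.19, Ddx56 at -1.11 and Ddx52 at -0.53 in the authors' deposited table. All 3 listed peaks of Ddx24 were negative, with called values of -0.40 (5′ UTR), -1.22 (exon 3 of 9) and -0.50 (3′ UTR) in the authors' deposited table. The exceptions were Ddx50, Ddx27 and Ddx54, with positive leading peaks of 0.83, 0.44 and 0.31 in the authors' deposited table. All 3 listed peaks of Ddx54, whose product also acts as a corepressor of nuclear receptors, were called and small, at 0.35 (5′ UTR), 0.31 (exon 14 of 20) and 0.29 (exon 16 of 20) in the authors' deposited table.

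Ddx21 and Ddx50 are paralogues that lie next to each other on chromosome 10 and gave leading peaks of opposite sign. The authors' deposited table gives -1.36 for Ddx21 at chr10:62582106-62584712 (log10 FDR -70.6) and 0.83 for Ddx50 at chr10:62616015-62616315 (log10 FDR -5.22), both in the 3′ UTR. A narrow peak at the very end of Ddx21, of 181 bp, stood at 0.63 and was not called (log10 FDR -0.96) in the authors' deposited table. Reads that paralogues share may be counted for either gene, and how the authors dealt with them is not given in the sources used here.

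Splicing helicases, which drive the rearrangements of the spliceosome, held called peaks of both signs. Of 9 genes, the leading peak was negative in 6 and positive in 3, all called, but over their 17 peaks 7 were negative, 9 positive and 1 not called. By gene the shares were 66.7% negative, against 47.6% of all genes, and 33.3% positive, near the 33.6% of all genes. By peak they were 41.2% negative, near the 40.6% of all peaks, and 52.9% positive, against 35.6%. Dhx32, a less well characterised member, had a single peak at chr7:133759483-133760186 in the 5′ UTR, with -1.66 (log10 FDR -46.5) in the authors' deposited table. For Dhx8, whose product releases the spliced mRNA, the authors' deposited table gives -1.21 in the 3′ UTR (log10 FDR -34.6) and 1.01 in exon 12 of 23 (log10 FDR -3.24). Dhx8 is 1 of the 2 splicing genes with a peak past -1 as its leading one.

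Smaller negative leading values were those of Ddx23 at -0.90, Ddx42 at -0.83, Dhx40 at -0.81 and Dhx38 at -0.65 in the authors' deposited table, all in the 3′ UTR. DDX23 and DHX38 act in spliceosome activation and in the second step of splicing, and DDX42 is bound to the particle that recognises the branch site. The positive ones were Ddx41 at 1.02, Ddx39b at 0.84 and Ddx46 at 0.55 in the authors' deposited table. Ddx39b encodes a helicase of both splicing and mRNA export, and both of its peaks were positive and called, with 0.84 (3′ UTR) and 0.91 (5′ UTR) in the authors' deposited table. The Ddx41 peak carries an exon label of another Ensembl gene that overlaps there, so its transcript of origin is uncertain.

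Ddx23 held 5 listed peaks, the most of any helicase gene, and they differed in sign along the gene. The authors' deposited table gives -0.90 (log10 FDR -31.9) for its 3′ UTR peak at chr15:98645254-98645733. Upstream of it, the peaks in exons 7, 6 and 5 of 17 stood at 0.38, 0.80 and 0.54 and the 5′ UTR peak at 0.57 in the authors' deposited table, and all of these but the one in exon 5 were called. The mean of the 5 values was 0.28, so the sign given to Ddx23 rests on the choice of the leading peak.

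Helicases of transcription and of small RNP and microRNA biogenesis were represented by 3 genes. For Ddx20, a subunit of the SMN complex that assembles small nuclear RNPs, the authors' deposited table gives a single peak of -1.57 at chr3:105678270-105679342 in the 3′ UTR (log10 FDR -49.2). The paralogues Ddx5 and Ddx17 encode coactivators of transcription that also assist the microRNA processor Drosha. Their 5′ UTR peaks had opposite signs in the authors' deposited table, with -1.02 for Ddx5 (log10 FDR -2.92) and 1.14 for Ddx17 (log10 FDR -11.2). Each also had a positive called peak, of 0.76 in a 61 bp stretch at the end of Ddx5 and of 0.50 in exon 8 of 13 of Ddx17 in the authors' deposited table.

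Export, translation and decay helicases had calls of either sign in shares near those of all genes. Of 10 genes, the leading peak was negative and called in 5, positive and called in 4 and not called in 1, with a median of 0.075. The shares were 50% negative, against 47.6% of all genes, and 40.0% positive, against 33.6%. Ddx6 encodes a translational repressor and decapping factor of cytoplasmic P-bodies, and its peaks ran from negative to positive along the gene. The authors' deposited table gives -0.95 in the 5′ UTR, then -1.48 (log10 FDR -46), 0.25 (not called) and 0.47 (log10 FDR -8.95) along the 3′ UTR, the last of these ending at the RefSeq end of the gene. Ddx19a and Ddx19b, neighbouring paralogues on chromosome 8 whose products release mRNA at the nuclear pore, stood at -1.41 (log10 FDR -25.3) and -0.36 (log10 FDR -1.50) in the authors' deposited table. Both products are nearly alike, but whether reads under these 3′ UTR peaks are shared between the genes was not examined.

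The positive genes of that role were Ddx39, Ddx3x, Ddx1 and Dhx34, with 1.11, 1.03, 0.58 and 0.51 in the authors' deposited table. DDX3X helps ribosomes through structured 5′ leaders, DDX1 belongs to the tRNA ligase complex, and Ddx39 (Ddx39a in RefSeq) encodes an export helicase close to Ddx39b. The Ddx3x peak spans 91 bp at the end of the gene on chromosome X. For Dhx34, a factor of nonsense-mediated decay, the leading value is a near tie: the authors' deposited table gives 0.51 in the 3′ UTR (log10 FDR -1.48) and -0.52 in the 5′ UTR (log10 FDR -1.47). Dhx36 encodes a helicase that resolves G-quadruplexes, and it too held a pair of opposite called peaks, which the authors' deposited table gives as -0.69 (exon 24 of 25) and 0.68 (3′ UTR). For Dhx57 the authors' deposited table gives -0.74 in exon 4 of 23, -0.51 in the 3′ UTR and 0.29 in the 5′ UTR. That 5′ UTR peak, at chr17:80290203-80297476, lies mostly upstream of the RefSeq gene, which starts at 80290476. Its transcript of origin is thus uncertain. Dhx29, which helps the small ribosomal subunit scan structured leaders, stood at 0.66 without a call in the authors' deposited table.

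Innate sensors, the mitochondrial helicase and the DNA helicase are few here. The RIG-I gene Ddx58, which encodes a sensor of viral RNA, had 1 peak at chr4:40205663-40208311 (log10 FDR -39.5) of negative sign, with a ratio of 0.369 in the authors' deposited table. Dhx58, whose product LGP2 modulates that sensor, had the highest fold change of all helicase peaks, 3.42 (ratio 10.7) in the authors' deposited table, but was not called (log10 FDR -0.95). That Dhx58 peak spans 178 bp and carries an exon label of another Ensembl gene. Dhx30 encodes a helicase of mitochondrial ribosome assembly, and for its only peak, in exon 8 of 19 at chr9:110087775-110088315, the authors' deposited table gives -2.03 (log10 FDR -69.8). Ddx11, a DNA helicase of sister chromatid cohesion, and Ddx59 had called 3′ UTR peaks, which the authors' deposited table gives as -0.99 and -0.83, and each had a further negative peak that was not called.

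The RefSeq annotation holds 53 protein-coding genes with such symbols, and 13 of them had no listed peak: Ddx3y, Ddx4, Ddx10, Ddx25, Ddx28, Ddx43, Ddx49, Ddx55, Ddx60, Dhx9, Dhx15, Dhx16 and Dhx35. Among these are the spliceosomal helicases Dhx15, Dhx16 and Dhx35 and the germline helicase Ddx4. An unlisted gene has no value here in either direction.

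Several helicase genes held peaks of both signs, which need not lie on the same transcript of the gene. Of the 15 helicase genes with 2 or more called peaks, 9 (60.0%) held called peaks of both signs, against 37.4% of 3418 such genes in the table. They were Ddx5, Ddx6, Ddx23, Ddx42, Ddx51, Dhx8, Dhx34, Dhx36 and Dhx57. The called peaks of Dhx34 and Dhx36, with log10 FDRs between -1.58 and -1.37, and the positive one of Ddx5, with -1.77, lie near the threshold. Most of the positive Dhx57 peak lies upstream of the RefSeq gene. No interval was computed for this share of genes with both signs, and its difference from all genes was not tested. In 10 genes both UTRs held a listed peak, and in 8 of them the leading 3′ UTR change was below the 5′ UTR change, against 72.3% of 2044 genes in the table. Taken as 3′ UTR minus 5′ UTR, the difference had a median of -0.67 in helicase genes and of -0.50 in all genes.

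The widest of these differences belonged to Ddx51 and Ddx42. For Ddx51 the authors' deposited table gives -1.79 in the 3′ UTR and 1.15 in the 5′ UTR, a difference of -2.94. The values of Ddx42 in the authors' deposited table were -0.83 and -1.11 in the 3′ UTR and 1.13 in the 5′ UTR. Ddx5 and Dhx34 ran the other way, with differences of 1.78 and 1.03. In Ddx5 the 3′ UTR peak was positive and the 5′ UTR peak negative.

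**Figure D4:**
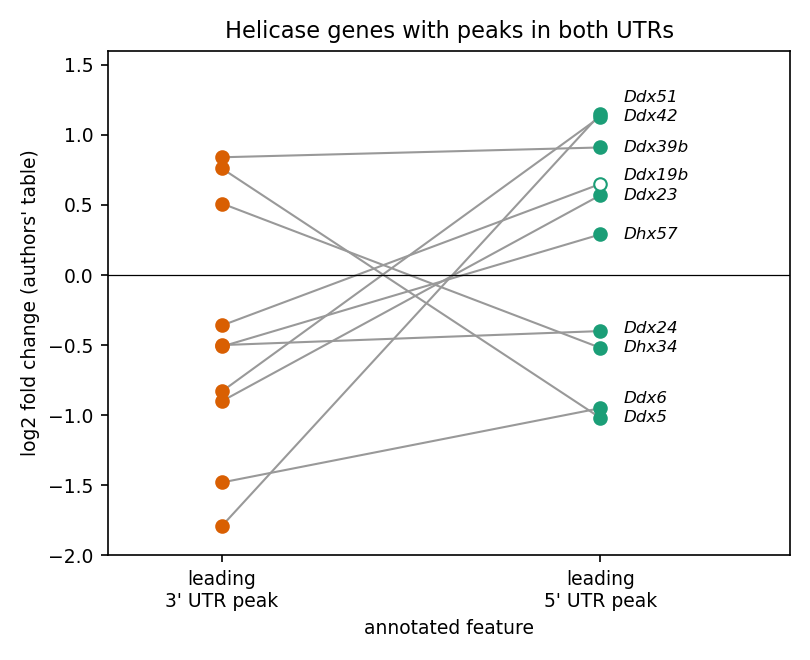
Log2 fold change (y axis) of the leading 3′ UTR peak and the leading 5′ UTR peak in the 10 helicase genes that hold both, joined by a line for each gene, open where not called. In 8 genes the 3′ UTR value is the lower one, and the lines of Ddx5 and Dhx34 slope the other way.

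Among helicase peaks labelled 3′ UTR, those near the end of the gene were mixed in sign and those further inside mostly negative. Called peaks made up 15 of 18 near the end and 21 of 23 further inside, against 82.1% and 80.7% of such peaks in all genes. Of the 18 peaks whose 3′ edge lay within 100 bp of the RefSeq gene end, 8 were negative and called, against 32.3% of such peaks in all genes, and 7 positive, against 49.8%. Of the 23 that ended more than 100 bp inside the gene, 18 were negative and called, against 59.9% of such peaks in all genes, and 3 positive, against 20.8%. The negative shares among called peaks were 53.3% near the end (Wilson interval 30.1 to 75.2) and 85.7% further inside (65.4 to 95), and in all genes 39.3% and 74.2%. This split was chosen after the values had been seen. The label follows the transcript given for each peak, and some peaks further inside lie far from the RefSeq gene end. Those of Dhx29, Ddx59 and Ddx19b ended 27637, 16034 and 4796 bp before it. The split is thus not one of position within a single 3′ UTR. Peaks at the end with positive calls were those of Ddx1, Ddx3x, Ddx5, Ddx6, Ddx27, Ddx39b and Dhx34, and those with negative calls included Ddx18, Ddx20, Ddx47, Dhx8 and Dhx33, each ending exactly at the RefSeq gene end.

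Where several 3′ UTR peaks lay on 1 gene, the last did not always stand above the first. In 4 of 7 helicase genes the last 3′ UTR peak had the higher change, against 66.8% of 1908 genes in the table. Ddx21, Ddx6 and Ddx19b had differences, last minus first, of 1.99, 1.95 and 1.31, and Dhx33 one of 0.51. Ddx47 (-0.75), Ddx42 (-0.28) and Ddx11 (-0.12) went the other way. The last peaks of Ddx21 (0.63), Ddx19b (0.95) and Ddx11 (-1.11) were not called.

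**Figure D5:**
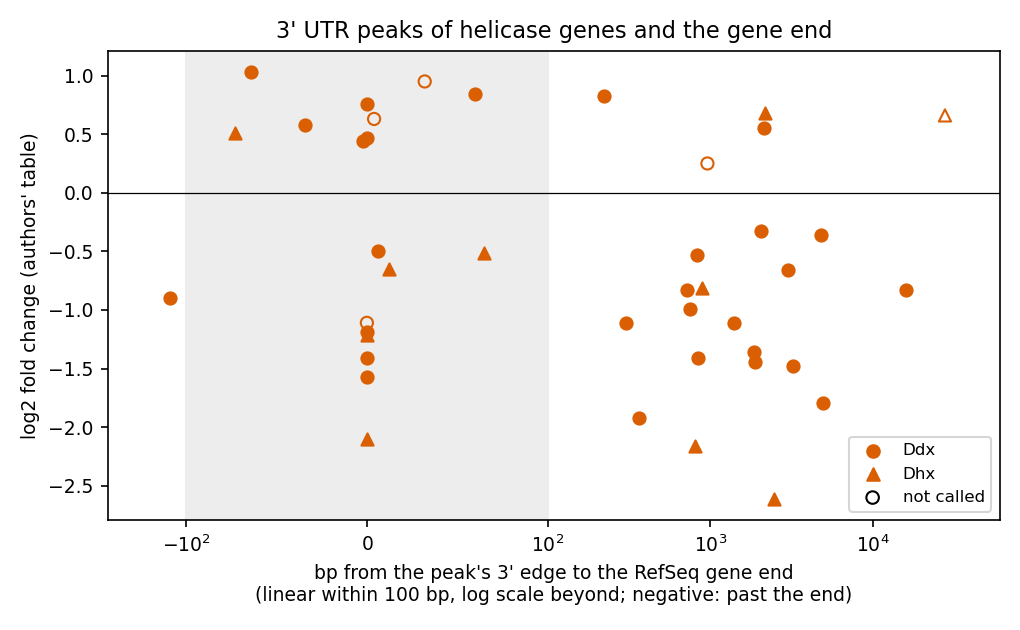
Log2 fold change (y axis) of 3′ UTR peaks of helicase genes against the distance from the peak's 3′ edge to the RefSeq gene end (x axis, bp, linear within 100 bp and logarithmic beyond, negative past the end), circles for Ddx and triangles for Dhx, open where not called. Within the grey band of 100 bp both signs occur, and further inside 18 of 23 peaks are negative and called.

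At the transcript start the helicase peaks were mostly positive. All 11 helicase 5′ UTR peaks that cover the start of the transcript given for the peak were called, against 79.3% of such peaks in all genes. Of these 11, 8 were positive, against 58.8% of such peaks in all genes, and 3 negative (Ddx5, Ddx6 and Dhx32), against 20.5%. Sequence around starts was at hand from RefSeq (GRCm38.p6, the same assembly as mm10). In 5 of these genes at least 1 RefSeq start lay inside the peak, 6 starts in all, and the 30 bases from 5 before the start are shown because they are the sequence given that lies under peaks of either sign, with the first transcribed base in capitals:

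Ddx51 (5′ UTR peak 1.15, chr5:110653446-110653475, plus strand): tcatcAaagagcgccggagaggaaccgcgg

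Ddx42 (5′ UTR peak 1.13, chr11:106216921-106216950, plus strand): ttagcGcgcatgtcagacgctccccccacc

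Ddx54 (5′ UTR peak 0.35, chr5:120613125-120613154, plus strand): gcccgGcccgcatggctgctggcagacgtg

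Dhx57 (5′ UTR peak 0.29, chr17:80290452-80290481, minus strand): gatagGcacagcgaacccacagactcgggg

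Ddx5, outer start (5′ UTR peak -1.02, chr11:106789161-106789190, minus strand): tggacAgcagaggagcacttcctcgcagca

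Ddx5, inner start (5′ UTR peak -1.02, chr11:106788883-106788912, minus strand): ccctgGtctccttcggttatgggcgtgggg

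The peak values beside these starts are those of the authors' deposited table. Most of the Dhx57 peak lies upstream of its start shown here. The RefSeq starts at hand for Ddx17, Ddx39b and Dhx32 all lay outside their peaks. The first base was A at 2 of the 6 starts, in Ddx51 with a positive and in Ddx5 with a negative peak, and G at the other 4; over all 32851 RefSeq windows it was A in 34.4% and G in 35.6%. The letters GGAC, the core of the usual m6A motif, were searched on the transcribed strand alone, and 1 of the 6 starts (Ddx54) held them in its first 50 transcribed bases, against 18.9% of all windows. No GGAC stands among the transcribed bases printed, and the windows cover only a small part of each peak.

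Related genes gave a further comparison. Of 20 symbols looked up for helicases not named Ddx or Dhx, where Skiv2l2 and Mtrex name the same gene, 13 held a peak. By leading peak 7 of these helicases were negative and called, 5 positive and called and 1 not called, with a median of -0.43. Their shares, 53.8% negative and 38.5% positive, lay near the 47.6% and 33.6% of all genes, and their median near the -0.52 of all genes. The authors' deposited table gives -2.15 for Dicer1 (exon), -1.17 for Supv3l1 (3′ UTR), -1.04 for Dqx1 (3′ UTR), -0.95 for Helz2 (exon), -0.43 for Upf1 (3′ UTR) and 0.66 for Eif4a1 (3′ UTR). DICER1 cuts microRNA precursors, UPF1 drives nonsense-mediated decay, and EIF4A1 is the DEAD box helicase of translation initiation.

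Protein partners of the helicases were more often positive than negative. Of 36 listed cofactors, 28 held a peak, and by leading peak 10 were negative and called, 16 positive and called and 2 not called, with a median of 0.42. The shares were 35.7% negative, against 47.6% of all genes, and 57.1% positive, against 33.6%. Over their 51 peaks, 13 (25.5%) were negative and called, against 40.6% of all peaks, and 32 (62.7%) positive, against 35.6%. The 6 with the smallest FDR were mostly negative all the same: the authors' deposited table gives -2.36 for Son, -1.72 for Mavs, -1.23 for Eif4g1, -1.03 for Tfip11, -0.98 for Gpatch3 and 0.44 for Eif4b. MAVS relays the signal of RIG-I, EIF4G1 and EIF4B work with EIF4A1, and TFIP11 activates DHX15. Both lists, like the role lists above, rest on textbook knowledge and were chosen with results of these data known.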

How the data were processed

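The series holds 12 libraries in 4 groups of 3: m6A-precipitated and input RNA of Mettl3-deficient and of wild-type liver. The submitters' processing notes name HISAT2 2.1.0 and mm10; nothing used here tells how peaks were found or compared. For every peak the deposited table holds, per the file headers, a log2 fold change, here treated as a score because 189 rows without a gene name hold displaced cells, a log10 FDR, a p-value rounded to 2 decimals, and other measures (genomic width and distance to the transcript start). Those 189 of 17692 rows were left out; none carries a helicase gene ID. Read depth is unknown, and no replicate spread could be computed.

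Calls were made at an FDR of 0.05. The leading peak of a gene has the smallest FDR, ties going to the larger change. Counts, medians and Wilson intervals (95%) were computed with Python 3.11.15, pandas 2.3.3 and scipy 1.17.1, and the counting steps were tested on simulated data. Planned fits on values per sample were not run. All 40 helicase genes matched RefSeq (GRCm38.p6), 39 by symbol and 1 by a synonym, and 34 had promoter rows. Every helicase peak overlapped the RefSeq span of its gene. Widths run on the genome and include introns, 61 to 7944 bp here. Every helicase gene was eligible to be named by a rule set with the lists, and genes of other lists by the 6 smallest FDRs. The members, lists and alternatives were chosen with earlier results of these data known.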

Additional observations from a re-analysis of the deposited data

How the results depend on the processing

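Of 77 alternative values over 14 results, 69 stayed within 1.5 times the count or within the 95% interval of the share or median. Part of these could not differ, so the count does not measure robustness. No left-out row carries a helicase gene ID, and every helicase peak overlaps its RefSeq gene. Centring on the median of all peaks leaves the number called as it is, and dropping Ddx19a and Ddx19b leaves every Dhx value. When a log2 change of 1 or more in size was required too, the called helicase peaks numbered 26, of which 19 were negative and 7 positive. With peaks of at most 1000 bp alone they numbered 37, with 21 negative and 16 positive. Both alternatives leave fewer peaks by construction. The Ddx median of -0.04 became -0.865 with 1 leading peak a gene, and turned to 0.29 without Ddx11 and Ddx58 (added after the data were seen); it lies in a gap between negative and positive values, and its 95% binomial interval ran from -0.83 to 0.50. Choosing the leading peak by the largest change turned the sign of 3 of 40 genes (Ddx19b, Ddx42 and Dhx34), and the mean over a gene's peaks that of 3 (Ddx19b, Ddx23 and Dhx34). No paired analysis was possible because the table used holds no values per library, and no replicate could be left out for the same reason. The split of the classes by the motif letters of the proteins was not run, as no protein sequences were used here. Read depth and signal over input were not known for any peak.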
